A study of Boechera gunnisoniana with 7 samples.

Results

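The mature female gametophyte of the apomict *Boechera gunnisoniana* was set against the young ovule on 7 of the 7 arrays of the series. The gametophyte side held 3 arrays, 1 each for egg, central and synergid cells, and the young ovule side held 4 arrays, 2 of the apomictic initial cell (AIC 1 and AIC 2) and 2 of the sporophytic nucellus around it (nucellus 1 and nucellus 2). All samples came from untreated, triploid, obligately apomictic plants of this species kept in the same greenhouse conditions. Flowers for the mature gametophytes were emasculated before fixation, so that both the developmental stage and this handling separate the sides. Every sample was a pool of cells cut from sections by laser, and such cuts can carry cytoplasm or walls of neighbouring cells. RNA was amplified and hybridized to the *Arabidopsis* ATH1 GeneChip, and the values are log2 expression values, 1 per *Arabidopsis* gene and array, for 21428 genes. As the study points out, signal across species depends largely on how similar probe and transcript are in sequence. A low value is thus no proof of absent RNA. A gene was counted as separated when all 3 gametophyte values lay above, or all below, all 4 young ovule values, both on the log2 values and on the ranks of the genes within each array.

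In gametophytic apomixis of the diplosporous type, the AIC takes the place of the megaspore mother cell, skips the reduction of meiosis, and its product divides by mitosis into an embryo sac. The egg cell then forms an embryo without fertilization, the central cell gives rise to the endosperm, and the synergids flank the egg and guide the pollen tube. The nucellus is the sporophytic tissue that encloses the initial cell and takes no part in the germline.

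The arrays were not alike in their technical values. The 18 hybridization controls are probe sets for bacterial and phage transcripts added at fixed amounts. They were higher on all 3 gametophyte arrays than on all 4 young ovule arrays in 18 of 18 probe sets. Several of these probe sets read the same transcript, so they are not independent of each other. Their mean was 10.67 for the egg, 11.43 for the central cell and 12.49 for the synergids, against 9.25 to 10.34 on the young ovule arrays. The SD over all genes was 1.11 for the central cell and 1.24 for the synergids, and lay between 1.38 and 1.44 on the other arrays. The SD of the egg cell array thus lay within the range of the young ovule arrays. Of 3 controls that compare the 3′ with the 5′ end of a transcript as a sign of RNA quality, actin did not overlap between the sides, with log2 differences of 2.89 to 3.27 on the gametophyte arrays and 2.11 to 2.61 on the young ovule arrays. The other two overlapped, with 2.75, 3.52 and 2.58 on the egg, central and synergid cell arrays against 2.23 to 2.84 for *GAPDH*, and 1.82, -0.16 and 1.23 against 1.58 to 1.83 for ubiquitin. The hybridization controls and the actin control move with the side, so that in this design they and the side cannot be told apart, and their part in the results was not tested. Across genes, Pearson's r was 0.834 to 0.927 between young ovule arrays, 0.790 to 0.844 between gametophyte arrays and 0.770 to 0.879 between the sides. Each gametophyte cell type had 1 array, so that the spread of the gametophyte side is that of cell types and arrays together. The young ovule side likewise mixes AIC and nucellus arrays, each treated as a replicate of that side. The p values below rest on the spread within both sides, pooled, and not on repeated samples of 1 cell type.

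**Figure D1:**
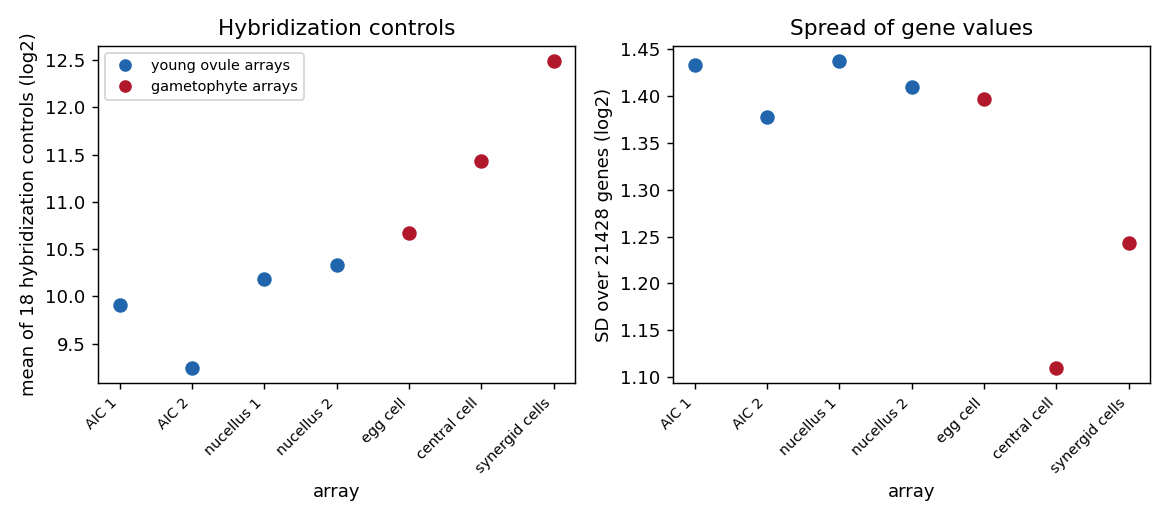
Mean log2 value of the 18 hybridization controls (left) and SD of the log2 values of 21428 genes (right), 1 point per array, with young ovule arrays in blue and gametophyte arrays in red. The controls were lowest on AIC 2 (9.25) and highest on the synergid array (12.49), and the spread of gene values was smallest on the central cell array (1.11).

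On the log2 values, all 3 gametophyte values lay above all 4 young ovule values for 1501 genes (7% of the 21428) and below them for 851 genes (3.97%). On the ranks, these numbers were 1303 (6.08%) and 1300 (6.07%). The share of higher genes among the separated ones was therefore 63.8% on the log2 values and 50.1% on the ranks, and it was 37.1% (1032 higher, 1753 lower) when the median of each array was subtracted, so that the balance between higher and lower genes depends on the scaling. Separated on both scales were 1006 genes higher (4.69%) and 618 genes lower (2.88%) on the gametophyte arrays. With the replicate numbers given here, complete separation is the most that an exact permutation test can see. Its smallest two-sided p is 0.0571 for 3 against 4 arrays. If the arrays were exchangeable, up to a share of 0.0571 of genes would thus be separated on a given scale, higher and lower together. Many of the separated genes may be of this kind. Separation of a gene is therefore not by itself evidence of a difference between the sides.

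On the log2 values as deposited, the genes lower on the gametophyte arrays had the larger differences. Gene values spread less on the central and synergid cell arrays (SD 1.11 and 1.24) than on the other arrays. Their medians were 4.163 and 4.096, against 3.997 to 4.028 on the other arrays. The part of spread and median in the sizes was not tested. Of the 1006 higher genes, 134 differed by at least 1 on the log2 scale (0.625% of all genes) and 18 by at least 2, whereas of the 618 lower genes 300 differed by at least 1 (1.4%) and 113 by at least 2. The median difference was 0.563 among the higher genes and 0.958, in absolute value, among the lower genes. A clear step of at least 1 between the nearest values of both sides was present in 13 higher and 50 lower genes. All 7 values were under the array medians in 323 of the 1006 higher genes (32.1%, against 31.6% of all genes) and in 83 of the 618 lower genes (13.4%). Among the 5357 genes with the highest mean over the 7 arrays, the median difference was -0.20, 63.4% of the differences were below 0 and 293 genes (5.47%) were separated lower, and among the 5357 genes with the lowest mean, the median difference was 0.09 and 72 genes (1.34%) were separated lower.

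Among the 1006 higher genes the highest value was on the central cell array in 408, on the synergid array in 396 and on the egg cell array in 202 genes, and among the 618 lower genes the lowest value was on these arrays in 206, 220 and 192 genes. These counts were unequal for the higher genes and close to each other for the lower ones. Among the 18 higher genes with a difference of at least 2, the highest young ovule value was on nucellus 2 in 9, on AIC 2 in 8, on AIC 1 in 1 and on nucellus 1 in 0 genes. Among the 113 lower genes with a difference of at least 2, the lowest young ovule value was on AIC 2 in 70, on nucellus 2 in 26, on AIC 1 in 10 and on nucellus 1 in 7 genes. AIC 2 thus stood nearest to the gametophyte side for most of the large differences among the lower genes. Fewer arrays make separation easier by construction. Without AIC 2, 1430 genes were separated higher and 996 lower on both scales. Without nucellus 2 these numbers were 1404 and 953, without AIC 1 1264 and 820, and without nucellus 1 1274 and 781. Without the egg cell array these numbers were 2811 and 1303, without the central cell array 1906 and 1780, and without the synergid array 1762 and 1298.

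**Figure D2:**
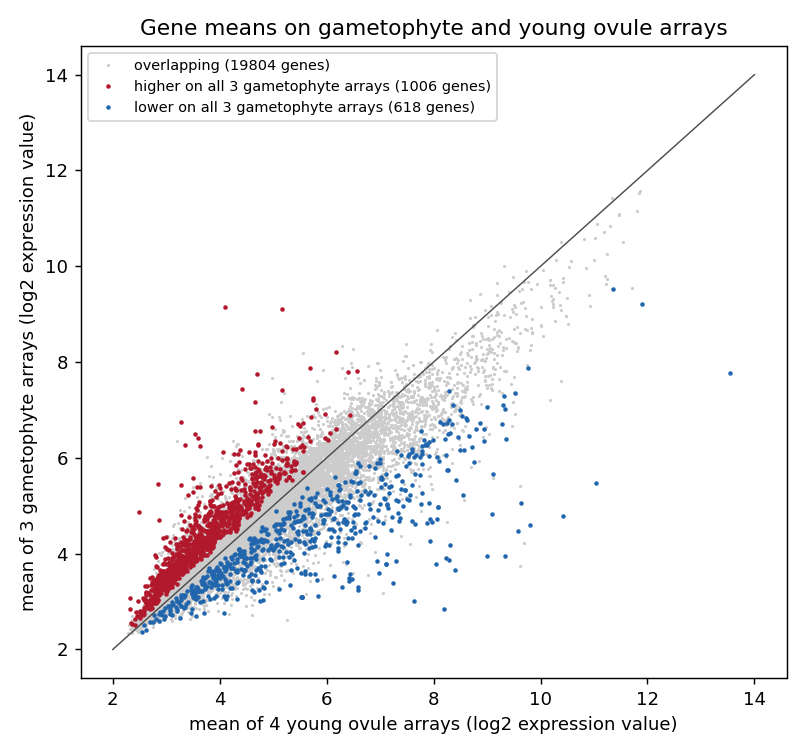
Mean log2 expression value of each of 21428 genes on the 4 young ovule arrays (x axis) and on the 3 gametophyte arrays (y axis), with genes separated on both scales in red (1006 higher on the gametophyte arrays) and blue (618 lower), overlapping genes in grey, and the line of equal means. The separated lower genes reach farther from the line than the higher ones, and genes of high level lie mostly below it.

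Tested with limma across all genes, 0 genes (0%) were called higher and 1 gene (0.00467%) was called lower on the gametophyte arrays at an adjusted p of 0.05, while 1404 and 974 genes had an unadjusted p under 0.05. The single gene was AT5G08030. Its values were 8.51 and 7.77 on AIC 1 and 2, 8.68 on nucellus 2 and 7.97 on nucellus 1, and 3.75, 3.85 and 4.11 on the egg, central and synergid cell arrays. It fell by 4.33 ± 0.25 (SE) on the log2 scale (limma, adjusted p = 0.0134), with 3.66 between the nearest values of both sides. Its call was lost without AIC 1 (adjusted p = 0.105), without nucellus 1 (adjusted p = 0.0928), without the synergid array (adjusted p = 0.0942) and with 1 mean per cell type (adjusted p = 0.137). It was also lost with the AIC arrays alone as young ovule side (limma, adjusted p = 0.455). On the ranks, limma called 2 genes higher (0.00933%) and 7 genes lower (0.0327%), the latter with AT5G08030 among them (adjusted p = 0.00766). AT5G53820 was another of the lower ones, with a smaller adjusted p (limma on ranks, adjusted p = 0.000286, and on log2 values, adjusted p = 0.189). Its log2 values were 6.49 to 10.08 on the young ovule arrays and 2.81 to 2.88 on the gametophyte arrays. AT4G25590 was called lower too (limma on ranks, adjusted p = 0.0201, and on log2 values, adjusted p = 0.188). The 2 higher genes on the ranks were AT3G17140 and AT1G36130, and on the ranks 0 genes were called higher without AIC 1, without nucellus 1, with the AIC or the nucellus arrays alone, with the replicate block or with 1 mean per cell type. For AT3G17140 the log2 values were between 3.33 and 3.77 on the young ovule arrays, and 6.07, 6.0 and 7.40 on the egg, central and synergid cell arrays (limma on ranks, adjusted p = 0.0230, and on log2 values, adjusted p = 0.15). For AT1G36130 they were between 2.71 and 3.02, and 4.81, 6.39 and 5.16 (limma on ranks, adjusted p = 0.0201, and on log2 values, adjusted p = 0.15). No annotation of these identifiers was used here, and they are given without a gene name.

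AT5G08030 apart, the 15 largest differences in each direction did not pass the test on the log2 values. The 15 largest among the separated higher genes ranged from 2.16 to 5.05 (limma, adjusted p = 0.15 to 0.50). At the top was AT3G17152, with 3.93, 4.58, 3.95 and 3.93 on AIC 1, AIC 2, nucellus 1 and nucellus 2, and 10.52, 7.32 and 9.61 on the egg, central and synergid cell arrays. It ranked between 46.88% and 65.27% on the young ovule arrays, and at 99.84, 98.62 and 99.66% on the egg, central and synergid cell arrays. The 15 genes chosen in the same way among the separated lower genes, AT5G08030 included, had differences from -4.26 to -5.76 (limma, adjusted p = 0.0683 to 0.367 for the other 14), and in 14 of the 15 the lowest young ovule value was on AIC 2. The largest difference was that of AT3G57690, with 13.61, 13.08, 13.66 and 13.82 on the young ovule arrays in the same order, and 6.44, 9.80 and 7.09 on the egg, central and synergid cell arrays (difference -5.76 ± 0.76, limma, adjusted p = 0.15). Here the 4 young ovule values lay close together, and the gametophyte values spread over more than 3 log2 units. Its ranks differed far less, with 100% on every young ovule array and 90.77, 99.93 and 96.29% on the egg, central and synergid cell arrays (limma on ranks, adjusted p = 0.583).

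Gene symbols below belong to lists of *Arabidopsis* genes that were drawn up from *Arabidopsis* nomenclature, since the deposited table carries identifiers only. The lists held 342 genes in 13 groups, 295 of them on the arrays, of which 16 (5.42%, against 4.69% of all genes) were separated higher and 18 (6.1%, against 2.88%) lower, 12 of the latter being histone genes. The list of egg cell, central cell and synergid genes checks the labels of the gametophyte arrays. Of its 24 genes 18 were measured, 5 of these (27.8%, against 4.69% of all genes) were separated higher and 0 lower, and 0 of the 18 passed limma. The median difference of the list was 0.37, against 0.05 over all genes. The mean of the list was 3.85 to 4.26 on the gametophyte arrays and 3.54 to 3.68 on the young ovule arrays.

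The 5 separated genes of this list act in the central cell, in the early endosperm or in the development of the embryo sac. *AGL80*, a MADS-domain factor of the central cell, had values of 6.10, 6.60 and 6.14 on the egg, central and synergid cell arrays, and of 4.99, 4.66, 4.82 and 5.56 on AIC 1, AIC 2, nucellus 1 and nucellus 2 (difference 1.27 ± 0.25, limma, adjusted p = 0.245). *MEA*, a Polycomb histone methyltransferase that holds back the endosperm before fertilization, had 4.52, 4.83 and 4.20 on the gametophyte arrays and 3.57, 3.38, 3.40 and 3.71 on the young ovule arrays (difference 1.00 ± 0.18, limma, adjusted p = 0.231). Both were highest on the central cell array, and neither overlapped between the sides. *FIS2*, which encodes a zinc finger partner of *MEA* in the same complex, had 4.16, 3.81 and 3.79 against 3.35 to 3.49. *CKI1*, a histidine kinase needed for the embryo sac, had 4.19, 4.0 and 3.72 against 3.36 to 3.53. *AGL62*, which delays the cellularization of the endosperm, had 3.16, 3.06 and 2.93 against 2.71 to 2.81. For these last 3 genes the egg cell array was the highest, and the differences were 0.28 to 0.53. Their levels were low, with *AGL62* at a rank of 16.24% or lower on every array and *FIS2* and *CKI1* between 23.76% and 55.69%. Low genes lay mostly above 0 in general, with 30.6% of differences below 0 among the 5357 genes of lowest mean. The number of separated genes of this list was 5 to 7 without each array in turn, and 5 with the array medians subtracted as well as after quantile normalization.

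Genes known from a single cell type of the embryo sac gave a mixed picture. *MYB98*, a transcription factor of the synergids, had 6.61 on the synergid array and 3.18 to 3.91 on the other 6 arrays. *NTA*, a membrane protein of the synergids that takes part in pollen tube reception, had 6.08 on the synergid array and 2.72 to 3.24 elsewhere. The label of the synergid array was thus matched by both genes. *FWA*, which is active in the central cell, was highest on the central cell array with 4.85, against 3.47 to 3.99 on the other arrays. The egg cell genes *EC1.2* and *EC1.5*, small secreted proteins of the egg, had 3.02 and 2.74 on the egg cell array. On the other arrays they had 2.74 to 3.05 and 2.92 to 3.23. Both ranked within the lowest 15.3% of genes on every array, so that they cannot check the label of the egg cell array. *RKD2*, a factor of the egg cell in *Arabidopsis*, had 3.63 on the egg cell array, 5.06 on the synergid array and 3.49 to 3.63 on the others.

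**Figure D3:**
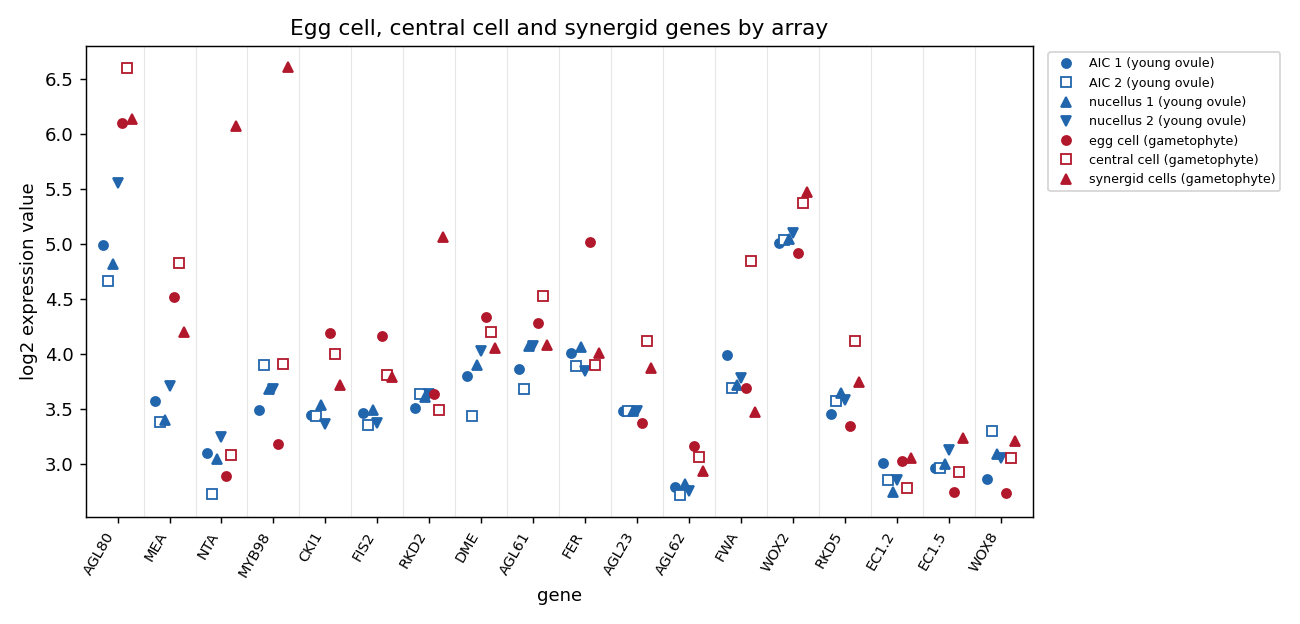
Log2 expression values of the 18 measured egg cell, central cell and synergid genes on each of 7 arrays, with young ovule arrays in blue and gametophyte arrays in red, ordered by the difference between the sides. *AGL80* and *MEA* lie higher on all 3 gametophyte arrays, whereas *NTA*, *MYB98* and *RKD2* are high on the synergid array alone (6.08, 6.61 and 5.06).

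Genes of DNA methylation, Polycomb repression and small RNA pathways had a difference above 0 more often than not, as did genes in general. Of 31 measured genes, 24 (77.4%, against 56.9% of all genes) had a difference above 0 and 4 (12.9%, against 4.69%) were separated higher, 0 were separated lower and 0 passed limma, with a median difference of 0.23. Beside *MEA* and *FIS2*, which stand in both lists, these were *CLF* and *DML2*. *CLF*, the Polycomb histone methyltransferase of sporophytic tissues, had 7.01, 6.29 and 7.42 on the egg, central and synergid cell arrays and 5.55 to 6.18 on the young ovule arrays (difference 0.93 ± 0.29, limma, adjusted p = 0.386). *DML2*, a DNA demethylase, had 3.93, 4.02 and 4.17 against 3.43 to 3.71. Its relative *DME*, which removes DNA methylation in the central cell, had 4.34, 4.20 and 4.05 against 3.43 to 4.03 on the log2 values, and overlapped on the ranks. The other subunits of the *MEA* complex were not separated, with *FIE* at 4.09 to 4.83 on the gametophyte and 4.25 to 5.24 on the young ovule arrays, and *MSI1* at 6.40 to 7.03 and 6.41 to 7.38. *AGO9*, an Argonaute that limits the number of germline precursors in *Arabidopsis* ovules, had 4.60 and 4.55 on the egg and central cell arrays, and 3.99 on the synergid array and on both nucellus arrays.

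Histone genes were the group with most separated genes in the other direction. Of 38 measured histone genes, 33 (86.8%, against 43.1% of all genes) had a difference below 0, 12 (31.6%, against 2.88% of all genes) were separated lower and 0 higher, and 0 passed limma (adjusted p = 0.245 to 0.532 for the 12). The median difference of the list was -0.64, and it was -0.72 with the array medians subtracted and -0.47 after quantile normalization. Among the 5357 genes of highest mean level, which held 18 of the histone genes, 5.47% were separated lower, and 6 of these 18 were. The number of histone genes separated lower was 12 to 18 without each array in turn, 17 without the central cell array, and 15 under either other scaling.

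The 12 genes were spread over the core histones. They comprised 5 of 10 H3 genes, 4 of 12 H2A genes and 3 of 11 H2B genes, and 0 of the 2 H4 and 0 of the 3 H1 genes. The largest difference was that of *HTA6*, an H2A gene, with 6.42, 7.51, 7.15 and 5.25 on AIC 1, AIC 2, nucellus 1 and nucellus 2, and 4.78, 3.88 and 3.92 on the egg, central and synergid cell arrays (difference -2.39 ± 0.55, limma, adjusted p = 0.28). *HTR2*, which encodes the replication-coupled H3.1, had 5.47, 6.76, 6.42 and 4.14 on the young ovule arrays, and 3.74, 3.10 and 3.87 on the gametophyte arrays (difference -2.13 ± 0.62, limma, adjusted p = 0.352). In both genes nucellus 2 was the lowest young ovule array, as in 8 of the 12. *HTA13* had 5.15 to 6.79 against 4.13 to 4.78, *HTB10* had 5.66 to 7.15 against 4.67 to 4.92, and *HTR1* had 5.02 to 6.81 against 4.07 to 4.57. The step between the nearest values was small, from 0.05 to 0.74. Of the 3 genes of replacement H3.3, which is used outside replication, only *HTR8* was separated on both scales, and 0 passed limma (adjusted p = 0.386 to 0.524). *HTR8* had 8.39 to 8.71 on the young ovule arrays, and 8.10, 5.07 and 7.43 on the egg, central and synergid cell arrays. *HTR4* was separated on the log2 values alone, with 9.56 to 10.04 against 9.46, 8.08 and 7.18, and *HTR5* overlapped (9.61 on the egg cell array, 8.92 to 9.85 on the young ovule arrays). On the egg cell array the log2 values of these 3 genes were 8.10, 9.46 and 9.61, nearer to those of the young ovule arrays than on the central and synergid cell arrays. Gene values in general spread less on these last arrays (SD 1.11 and 1.24), and the ranks did not bear out this contrast throughout. On the egg, central and synergid cell arrays, *HTR8* ranked at 97.76, 76.23 and 97.3%, *HTR4* at 99.49, 99.49 and 96.59%, and *HTR5* at 99.57, 97.87 and 98.76%. *HTR12*, the centromeric H3, had 3.47 to 3.76 on the gametophyte arrays against 3.20 to 3.48. Histone families hold near-identical copies, and the values of single members are uncertain for this reason.

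**Figure D4:**
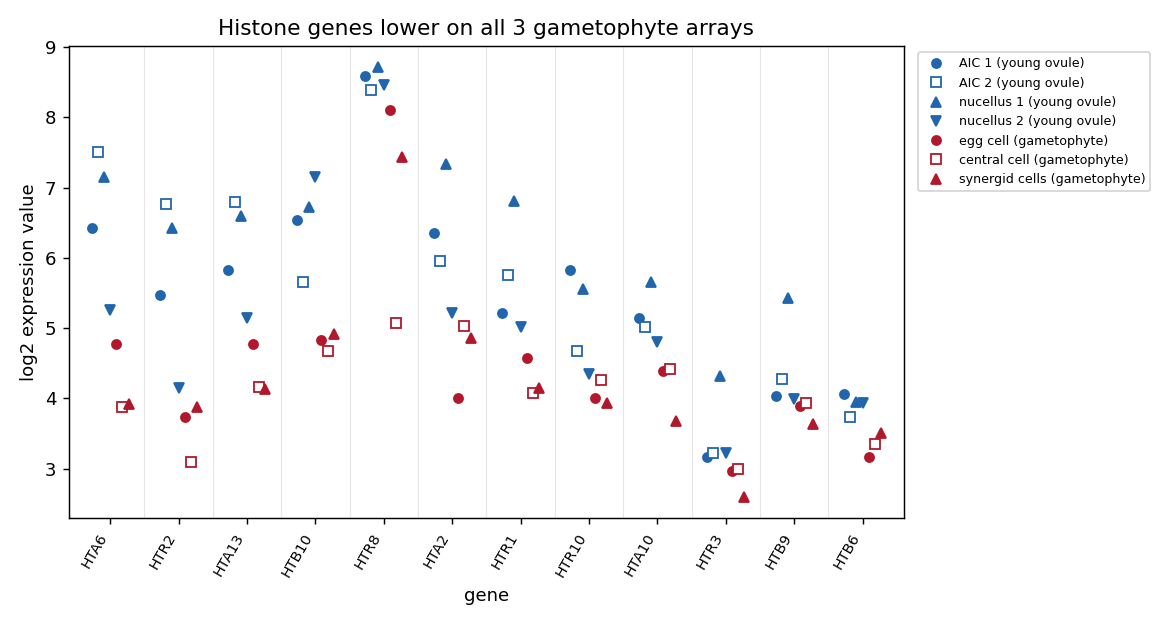
Log2 expression values of the 12 histone genes that were lower on all 3 gametophyte arrays (red) than on all 4 young ovule arrays (blue), ordered by the difference between the sides. *HTA6* and *HTR2* have the largest differences (-2.39 and -2.13), and the step between the nearest values of both sides is under 1 in every gene shown.

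Few other genes of the S phase and of mitosis were separated. Of 17 measured DNA replication genes, 1 (5.88%, against 4.69% of all genes) was separated higher and 0 lower (against 2.88%), and of 21 mitotic cyclin, kinase and division genes, 1 was separated higher and 1 lower (4.76% each), and 0 genes of either list passed limma. The shares of separated higher genes lay near that of all genes. The separated replication gene was *RNR1*, the large subunit of ribonucleotide reductase, with 4.68, 3.83 and 3.70 on the egg, central and synergid cell arrays and 3.08 to 3.49 on the young ovule arrays. *PCNA2*, a sliding clamp of the replication fork, differed within both sides, with 7.77, 8.75 and 7.36 on AIC 1, AIC 2 and nucellus 1 but 2.98 on nucellus 2, and 8.43 on the egg cell array but 4.53 and 3.42 on the central and synergid cell arrays. *MCM3*, part of the replicative helicase, had 5.05, 5.95 and 4.62 on AIC 1, AIC 2 and nucellus 1, 3.15 on nucellus 2, and 3.05 to 3.60 on the gametophyte arrays. Nucellus 2 was thus the lowest young ovule array for both genes. Of the cyclins, *CYCA2;2* was separated higher, with 6.66, 4.37 and 4.73 on the egg, central and synergid cell arrays, against 3.73 to 4.16 (difference 1.3 ± 0.53, limma, adjusted p = 0.441). *CYCB1;4*, a cyclin of the G2 to M transition, was separated lower, with 5.23, 4.68 and 4.02 against 6.22, 6.10, 5.26 and 6.15 (difference -1.29 ± 0.35, limma, adjusted p = 0.328). The cyclins thus differed in either direction, by values that did not pass the test.

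Meiotic, ovule patterning and cytokinin genes showed no common direction between the sides. Of 26 measured meiotic genes 1 (3.85%) was separated higher, of 28 ovule patterning genes 1 higher and 1 lower (3.57% each), and of 24 cytokinin genes 1 higher (4.17%), shares near the 4.69% higher and 2.88% lower of all genes, with 0 genes of these lists passing limma. Their median differences were 0.07, 0.05 and 0.05, and each turned negative when the array medians were subtracted. *AP2*, a factor of ovule and floral identity, had 4.81, 4.81 and 4.70 on the egg, central and synergid cell arrays and 3.82, 3.99, 4.08 and 3.81 on the young ovule arrays (difference 0.85 ± 0.12, limma, adjusted p = 0.15). *ANT*, which promotes growth of ovule primordia and integuments, was separated lower, with 3.27, 3.38 and 3.75 against 3.99, 4.61, 4.06 and 3.75, with nearly equal values on the synergid and nucellus 2 arrays. *CKX6*, a cytokinin oxidase, had 4.77, 5.29 and 4.76 against 4.12 to 4.45. Some meiotic genes were highest on AIC 1 alone. *REC8*, the meiotic cohesin, had 5.94 there, 3.78 on AIC 2 and 3.88 to 4.66 on the nucellus arrays, and 4.98 on the synergid array. *DMC1*, the meiotic recombinase, had 4.81 on AIC 1, against 3.21 to 4.12 on the other 6 arrays, and *SDS*, a meiotic cyclin, had 5.01, against 3.65 to 4.14.

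Genes of polyamine metabolism and of the anther gave the largest differences of all lists, and these rested on 3 of the 4 young ovule arrays. Spermidine conjugates with hydroxycinnamic acids are made in the tapetum, the nurse tissue of the anther, and coat the pollen grain. *SHT*, the spermidine hydroxycinnamoyl transferase, had 10.11 on AIC 1, 11.09 on nucellus 1 and 10.77 on nucellus 2, but 5.41 on AIC 2, and 3.70, 4.55 and 3.61 on the egg, central and synergid cell arrays. The difference was -5.39 ± 1.36 (limma, adjusted p = 0.303), and -6.70 without AIC 2 (limma, adjusted p = 0.0042). Leaving out the young ovule array that stands apart narrows the spread by construction, so this second p value is no evidence of a difference between the sides. *CYP98A9* and *CYP98A8*, which hydroxylate the conjugate, had 10.48 to 10.83 and 7.77 to 8.70 on the same 3 arrays, 4.60 and 4.52 on AIC 2, and 4.89 to 6.13 and 3.68 to 5.18 on the gametophyte arrays. *GRP19*, an oleosin of the pollen coat, had 11.33, 11.05 and 11.91 on AIC 1, nucellus 1 and nucellus 2, but 4.17 on AIC 2, and 3.39, 4.19 and 3.66 on the gametophyte arrays. AIC 2 thus lay near the gametophyte arrays for these genes, and of the 4 only *SHT* was separated on both scales. *GRP17*, a second pollen coat oleosin, was separated lower, with 6.71, 6.21, 7.66 and 7.94 on AIC 1, AIC 2, nucellus 1 and nucellus 2, against 4.18, 5.78 and 5.15 (difference -2.09 ± 0.53, limma, adjusted p = 0.307). *ACA9*, a calcium pump of pollen, had 7.03 to 9.08 on AIC 1 and the nucellus arrays, 4.40 on AIC 2 and 4.36 to 5.32 on the gametophyte arrays.

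As whole lists, these groups differed less than their leading genes. Of 20 polyamine genes 1 was separated lower and 1 higher (5% each), of 21 tapetum genes 2 lower (9.52%) and 1 higher (4.76%), and of 9 mature pollen genes 0 lower and 1 higher (11.1%), against 2.88% lower and 4.69% higher over all genes, with 0 passing limma. *SHT* stands in both the polyamine and the tapetum list and is counted in each. Their median differences were -0.54, -0.35 and -0.20. The list means were 6.25 to 6.38 on AIC 1 and the nucellus arrays, 5.23 on AIC 2 and 4.94 to 5.37 on the gametophyte arrays for the polyamine genes, and 4.76 to 5.67, 4.01 and 3.67 to 4.14 for the tapetum genes. Defining tapetum genes were not at one level on the young ovule arrays. *A9* and *A7*, 2 classical tapetum genes, had 8.90 and 8.60 on nucellus 1, 3.05 to 3.55 and 4.25 to 4.37 on the other young ovule arrays, and 3.07 to 4.66 and 4.38 to 4.71 on the gametophyte arrays. *AMS*, a regulator of the tapetum, had 4.55, 5.77 and 4.84 on AIC 1, nucellus 1 and nucellus 2, 2.87 on AIC 2 and 2.94 to 3.68 on the gametophyte arrays. The sporopollenin genes *CYP703A2* and *CYP704B1* had values of 3.64 or lower on every array. Of the polyamine biosynthesis genes, *ADC1*, an arginine decarboxylase, had 6.41 to 6.76 on AIC 1 and the nucellus arrays, 4.93 on AIC 2 and 4.31 to 5.11 on the gametophyte arrays. *SAMDC3*, which supplies decarboxylated S-adenosylmethionine, was separated higher, with 5.44, 4.78 and 5.77 against 4.1 to 4.50.

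Over all genes, 50 lay at least 2 log2 units lower on AIC 2 than on each of the other 3 young ovule arrays, and in 47 of these all gametophyte values also lay below those 3 arrays. The same step was seen for 75 genes on nucellus 2, for 8 on AIC 1 and for 4 on nucellus 1. Without AIC 2, limma called 33 genes lower on the gametophyte arrays, of which 24 were among the 618 separated lower on all 7 arrays. *SHT* was among these calls, and for it AIC 2 was the array that stood apart, so that its call follows from the omission. The part of anther or pollen RNA in these differences was not tested, and fewer cells of a type and less RNA per cell cannot be told apart in such pools.

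**Figure D5:**
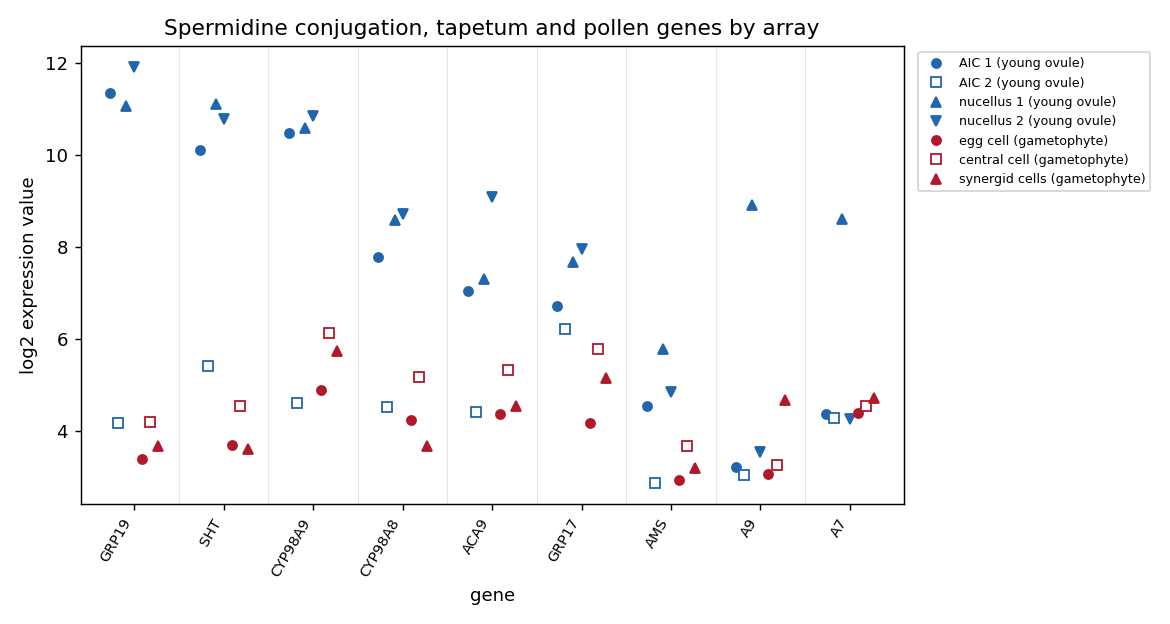
Log2 expression values of 9 spermidine conjugation, tapetum and pollen genes on each of 7 arrays, with young ovule arrays in blue and gametophyte arrays in red, ordered by the difference between the sides. AIC 2 (open blue squares) lies near the gametophyte arrays for *GRP19*, *SHT*, *CYP98A9*, *CYP98A8*, *ACA9* and *AMS*, and *A9* and *A7* are high on nucellus 1 alone (8.90 and 8.60).

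Few heat shock and folding genes and nuclear photosynthesis genes were separated between the sides. Of 25 heat shock and folding genes 2 (8%, against 2.88% of all genes) were separated lower and 0 higher (against 4.69%), with a median difference of -0.09, and 0 passed limma. *CRT1B*, a calreticulin that folds glycoproteins in the endoplasmic reticulum, had 8.70, 8.09, 9.24 and 9.12 on AIC 1, AIC 2, nucellus 1 and nucellus 2, and 6.97, 5.26 and 7.56 on the egg, central and synergid cell arrays (difference -2.19 ± 0.57, limma, adjusted p = 0.31). The other was *HSP15.7*, a small heat shock protein, with 3.57 to 3.93 against 3.43 to 3.54. Its values lay close together on all 7 arrays. Of 21 photosynthesis genes 1 (4.76%, against 4.69% of all genes) was separated higher and 0 lower, with 0 passing limma. The median difference of this list depended on the scaling, with 0.04 as deposited, -0.04 with the array medians subtracted and 0.47 after quantile normalization. It was *FNR1*, the ferredoxin-NADP reductase of the leaf, with 5.85, 5.93 and 5.29 against 4.25, 4.40, 3.93 and 4.50 (difference 1.42 ± 0.21, limma, adjusted p = 0.154). The mean of the photosynthesis list was 7.88 on the egg cell array, 6.0 and 6.52 on the central and synergid cell arrays, and between 6.0 and 7.61 on the young ovule arrays, so that the egg cell array lay above all others and the other gametophyte arrays did not.

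The 5 genes that the study had probed by *in situ* hybridization on ovule sections were not separated on both scales, and 0 of them passed limma. The study picked them as detected in the AIC but lacking evidence in the megaspore mother cell of *Arabidopsis*, and reported AIC-enriched signal for each. Mature gametophyte cells played no part in that choice, so the values here do not check its *in situ* result. On both AIC arrays it called AT1G06170 and AT1G14900 absent, and AT1G14900 ranked between 25.3% and 35.42% on every array. AT1G59740, an oligopeptide transporter, had 7.70, 7.61 and 8.84 on AIC 1, nucellus 1 and nucellus 2, 4.71 on AIC 2, and 5.03, 4.90 and 3.51 on the egg, central and synergid cell arrays (difference -2.74 ± 0.96, limma, adjusted p = 0.415). AT1G06170, a basic helix-loop-helix factor, had 3.60, 3.36, 5.56 and 4.62 on AIC 1, AIC 2, nucellus 1 and nucellus 2, and 3.25, 3.28 and 3.47 on the gametophyte arrays (difference -0.95 ± 0.52, limma, adjusted p = 0.515). In both, AIC 2 overlapped with the gametophyte arrays while the other young ovule arrays lay above them. AT1G28050, a B-box factor, had 5.45 to 5.53 on the young ovule arrays and 6.36, 4.96 and 6.46 on the gametophyte arrays. AT1G76580, an SBP-domain factor, differed by -0.45 and AT1G14900, which encodes a high mobility group A protein, by -0.01 between the sides (limma, adjusted p = 0.635 and 0.975).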

How the data were processed

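RNA of 7 laser-dissected samples was amplified, labelled and hybridized to ATH1 GeneChips. The authors deposited log2 expression values per gene and array, made with the custom TAIRG annotation (version 14) of the array. RMA is named by the methods for heatmap values, whereas for the deposited table the normalization step was not given in the sources used here. They were used as deposited, without the 64 Affymetrix control features, which served for the array checks only. The number of arrays limits the precision.

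The 3 gametophyte arrays were compared with the 4 young ovule arrays by limma 3.58.1 under R 4.3.3 (functions lmFit and eBayes). This was done for log2 values and for ranks within each array, as a percentage, and Benjamini-Hochberg adjustment over 21428 genes was applied with a cutoff of 0.05. The fit had 5 residual degrees of freedom, and a prior of 1.88 degrees of freedom. The routine was tested on simulated data. A gene was separated when the values of one side did not overlap with those of the other on both scales.

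The comparison and the gene lists were chosen with earlier results of these data known. Named genes were the 15 largest differences in each direction among called or separated genes (a few are printed), list members separated with a difference of at least 1, and the 5 genes of the *in situ* hybridizations. Other list members and the genes called on ranks were chosen after their values were seen. Symbols were assigned to identifiers from *Arabidopsis* nomenclature, and 11 of 11 list genes that also stand in the cell cycle table of the study carried the same symbol there. Of 21428 genes, 221 had the same 7 values as another gene. Alternatives were other scalings, a filter on low genes, each array left out, the AIC or nucellus arrays alone, a trended prior, 1 mean per cell type and the replicate number as a block. The egg cell array alone and the median-centred lists were added after seeing the data.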

Additional observations from a re-analysis of the deposited data

Results flagged for a closer look

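Of 51 named genes, 9 had a young ovule array far from the other 3, in that its gap to the nearest of them, as a share of the range of all 4 arrays, was above Dixon's 95% critical value. Chance flags about 1 in 20 groups that were not selected. Apart from the *in situ* genes, the genes here were chosen by these same values, so that this rate is no yardstick for the 9. In 7 of the 9 the array was AIC 2. It lay above the other 3 for AT3G17152 (gap 0.969 of the range) and AT1G76580 (0.832). It lay below them for AT1G66850 (0.954), AT3G51590 (0.932), AT4G25590 (0.864), AT1G30020 (0.858) and AT1G28050 (0.875), and for the last gene the 4 values spanned only 5.45 to 5.53. Nucellus 2 lay above the others for AT1G74010 (0.851), and nucellus 1 below them for *CYCB1;4*, AT2G26760 (0.875).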

How the results depend on the processing

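Counts of genes depended on the arrays and on the scaling. Leaving out each array in turn, limma called 0 to 6 genes higher and 0 to 33 lower on the gametophyte arrays, and on ranks 0 to 19 higher and 1 to 26 lower. The numbers of genes above or below on all gametophyte arrays on the log2 values were then 1801 to 4117 and 1041 to 2036, where fewer arrays make separation easier by construction. With the array medians subtracted 2 genes were called lower and 1753 lay below, after quantile normalization or on ranks 1300 lay below, and with genes above the median level alone 2 were called lower and 513 lay above. With the AIC arrays alone as young ovule side, 0 genes were called lower, 0 and 0 were called on ranks, and 2984 and 1870 lay above and below. With the nucellus arrays alone, 13 were called lower, 0 and 0 on ranks, and 2933 and 1988 lay above and below. With 1 mean per cell type 0 were called lower, and 0 and 0 on ranks, and a trended prior called 5 higher on ranks. The egg cell array alone as gametophyte side, chosen after seeing the data, gave 142 called higher and 7 lower, 4739 above and 5624 below, and 9 gametophyte genes and 19 histone genes separated. With 1 array on that side, the spread in this fit is that of the young ovule arrays, which the egg cell array is assumed to share, so that these calls have no replicate check. The cause of these shifts was not tested.

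With the replicate block, 32 genes were called lower, and 0 were called higher on ranks. Whether equal replicate numbers stand for a shared batch is not known. The deviations of the AIC pair and of the nucellus pair had a correlation of 0.0314 across genes. The titles of the gametophyte arrays carry no replicate number, and the block grouped them with AIC 1 and nucellus 1. The difference of AT1G14900, -0.01 with all arrays, ranged from -0.0545 to 0.0345 without each array in turn, with 0.00829 without AIC 1 and 0.0338 without the egg cell array, and was 0.0863 with the nucellus arrays alone and 0.0251 with the block. Of the named differences under the alternatives, 760 kept their direction and their side of the threshold, 41 passed it in the same direction and 5 no longer did.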
